A study of Arabidopsis thaliana with 9 samples.

Results

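The genes described here are 6 Arabidopsis thaliana oleosin loci and 1 caleosin gene, CLO1, whose products coat the oil bodies of seeds. They were taken by locus identifier from an expression table of 33278 loci: OLEO1 (AT4G25140), OLEO2 (AT5G40420), OLEO3 (AT5G51210), OLEO4 (AT3G27660), AT3G01570, AT3G18570 and CLO1 (AT4G26740), and all 7 were present. AT3G01570 and AT3G18570 have no gene name in the reference table used, and CLO1 is listed there as ATS1, with CALEOSIN1 among its synonyms.

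Whole seedlings of 6 days were profiled by RNA-seq, with 2 libraries from wild type (Columbia-0) and 2 labelled hd2b hd2c double mutant. HD2B and HD2C are plant-specific histone deacetylases, enzymes that remove acetyl groups from histones. The design asks how transcript levels change when both genes are mutated. The labels describe soil-grown plants under continuous light, without naming the alleles. Nor do they tell whether a genotype's 2 libraries were from different plants, so the p-values cover only the spread between libraries, which may be technical.

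Oil bodies store triacylglycerol as droplets bounded by a single layer of phospholipid. Oleosins are small proteins whose long hydrophobic hairpin sits in the oil, and they keep droplets small and separate while a seed dries and when it takes up water again. Caleosins share the hairpin and add a calcium-binding domain, and CLO1 has peroxygenase activity. In Arabidopsis these genes are transcribed late in seed development under factors such as ABI3, their transcripts are stored in the dry seed, and after germination the transcripts decline while the oil is consumed.

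HD2B had 138 and 191 FPKM in the wild-type pair against 24.3 and 24.3 FPKM in the labelled mutants. HD2C stood at 56.1 and 63.9 FPKM against 74.7 and 55.8 FPKM, so HD2C was not lower and its values overlap (adjusted p = 0.791). The insertion site is not in the labels, and a value for the whole locus cannot tell a full transcript from a disrupted one. The libraries are therefore called labelled mutants, and every direction below rests on that label. FPKM is the number of fragments scaled to transcript length and to all mapped fragments, so levels can be set side by side between genes. FPKM summed to between 956002 and 1105981 per library. The leaf genes CAB1, of the light-harvesting antenna, and RBCS1A, of Rubisco, stood at 13950 to 20970 and 10180 to 12100 FPKM, and the root regulator MYB36 at 1.86 to 3.66 FPKM, as in seedlings with green tissue and roots. In whole seedlings, a different number of cells of one type and a different amount of RNA per cell cannot be told apart.

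All 7 genes had both labelled mutant libraries above both wild-type libraries, a pattern found in 17.4% of the 33278 loci and in 24.2% of the tested loci. Together they summed to 5.49 and 9.46 FPKM for the wild-type pair and, 4.72-fold more, to 27.7 and 42.8 FPKM for the labelled mutants. A single gene, OLEO4, passed the threshold, an adjusted p of 0.05 in limma over 19917 tested loci, where 0.608% of loci passed upwards and 0.552% downwards. At an unadjusted p under 0.05, 5 of the 6 tested genes were higher and 0 lower, where 9.22% of tested loci were higher and 17.2% differed in either direction. A gene entered the test if it reached 1 FPKM in 2 or more libraries. Of these 5, CLO1 entered only through the labelled mutants. OLEO1 and OLEO2 reached 1 FPKM in 1 wild-type library and also needed a labelled mutant library to enter. The places of CLO1, OLEO1 and OLEO2 in the count thus depend on their levels in the labelled mutants. OLEO4 and AT3G01570 reached 1 FPKM in both wild-type libraries. The median log2 change of the 7 genes was 0.95, against 0.00 over all tested loci, on the scale of log2(FPKM + 1), which understates changes of weakly expressed genes. Of tested loci, 1.02% had a log2 change at least as high as that median. The genes were chosen with earlier results of these data known, so the shared direction is a description of these libraries.

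**Figure D1:**
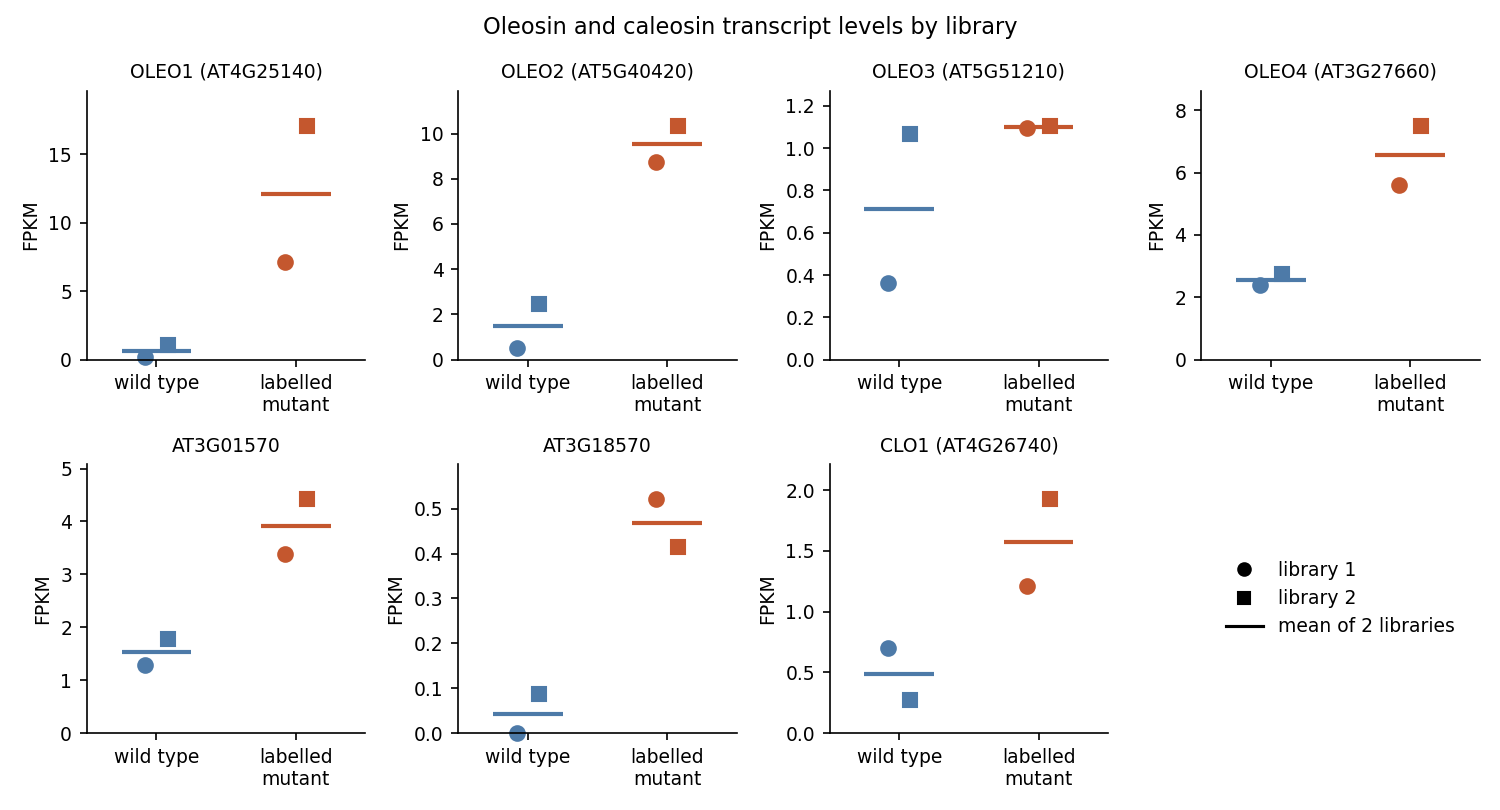
FPKM of each of the 7 genes in the 2 wild-type (blue) and 2 labelled mutant (red) libraries, with circles for library 1, squares for library 2 and a line at the mean of both. In each panel both red points lie above both blue points, from a wide gap for OLEO1 (7.10 and 17.1 against 0.206 and 1.07) to hardly any for OLEO3 (1.10 and 1.11 against 0.362 and 1.07).

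OLEO1 encodes the most abundant oleosin of Arabidopsis seeds and had the largest difference. It had 0.206 and 1.07 FPKM in the wild-type pair against 7.10 and 17.1 FPKM in the labelled mutants. The groups were far apart, yet the libraries within each also differed, 5.17-fold in wild type and 2.40-fold in the labelled mutants. The ratio of group means was 19.0, and the log2 change was 2.94 (SE 0.51, 95% interval 1.52 to 4.35, adjusted p = 0.123). Of all tested loci, 16 had a larger log2 change upwards. Leaving out wild-type library 1 or 2 made this ratio 11.3 or 58.7, and leaving out labelled mutant library 2 made it 11.2. Its test passed without labelled mutant library 1 (adjusted p = 0.0227) or 2 (0.0313), and over all alternatives the adjusted p ran from 3.23e-04 to 0.717. A fit with 1 library in a genotype takes its spread from the pair of the other genotype, which is why such a call shows dependence on a library.

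OLEO2, a second major seed oleosin, had 0.536 and 2.46 FPKM in the wild-type pair against 8.75 and 10.3 FPKM in the labelled mutants. Here the labelled mutant libraries lay close together and the wild-type libraries were 4.59-fold apart. The mean was 6.38-fold higher, with a log2 change of 2.19 (SE 0.41, 95% interval 1.11 to 3.27, adjusted p = 0.117). The test passed when either wild-type library was left out (adjusted p = 6.36e-07 without library 1 and 3.54e-10 without library 2), that is, when the only spread left was that of the labelled mutants. The ratio of means was then 3.88 without library 1 and 17.8 without library 2, and over all alternatives the adjusted p ran from 3.54e-10 to 0.309.

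OLEO4, also an oleosin of the seed, rose. It had 2.38 and 2.73 FPKM in the wild-type pair against 5.61 and 7.50 FPKM in the labelled mutants, with little spread inside either genotype. The mean went from 2.56 ± 0.246 to 6.56 ± 1.34 FPKM (SD, n = 2 each), a 2.56-fold rise and a log2 difference of 1.08 (SE 0.17, adjusted p = 0.0311 in limma over all loci). The call ended without labelled mutant library 2 (adjusted p = 0.0672) and with no filter on low values (0.170), with a range of 0.00208 to 0.170 over all alternatives.

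AT3G01570 resembled OLEO4 at a lower level. It had 1.30 and 1.77 FPKM in the wild-type pair against 3.39 and 4.42 FPKM in the labelled mutants. The ratio of means was 2.55, close to that of OLEO4, and the log2 change of 0.95 (SE 0.18, 95% interval 0.53 to 1.37) missed the threshold (adjusted p = 0.0594). Leaving out wild-type library 2 brought it past the threshold (adjusted p = 0.00662), as did leaving out labelled mutant library 1 (0.0482), and the adjusted p ran from 0.00662 to 0.211 over all alternatives.

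OLEO3, a small seed oleosin, was the gene with the smallest difference. Its level was 0.362 and 1.07 FPKM in wild type against 1.10 and 1.11 FPKM in the labelled mutants. Wild-type library 2 nearly reached the labelled mutants, so the groups were separated by library 1. The log2 change was 0.33 (SE 0.23, adjusted p = 0.526), and its 95% interval of −0.21 to 0.86 holds no change as well as a difference of 0.86. Without wild-type library 1 the log2 change was 0.02, and without wild-type library 2 it was 0.63, with ratios of means of 1.03 and 3.05.

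AT3G18570 had the lowest level. It was listed at 0 and 0.0868 FPKM for the wild-type pair, and 0.521 and 0.415 FPKM were given for the labelled mutants. It did not reach 1 FPKM in any library and was left out of the test, so the values are given without a verdict. An exact 0 in such a table can also be a failed estimate.

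CLO1, the caleosin, was also higher in the labelled mutants. It had 0.704 and 0.272 FPKM in the wild-type pair against 1.21 and 1.93 FPKM in the labelled mutants. It was the only gene of the 7 with more transcript in wild-type library 1 than in library 2. The ratio of means was 3.22, or 5.77 without wild-type library 1, and the log2 change 0.79 (SE 0.23, 95% interval 0.26 to 1.32, adjusted p = 0.154). CLO1 entered the test only through the labelled mutant libraries, since neither wild-type library reached 1 FPKM, and its test passed without wild-type library 1 (adjusted p = 0.0454, with a range of 0.0454 to 0.358 over all alternatives).

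**Figure D2:**
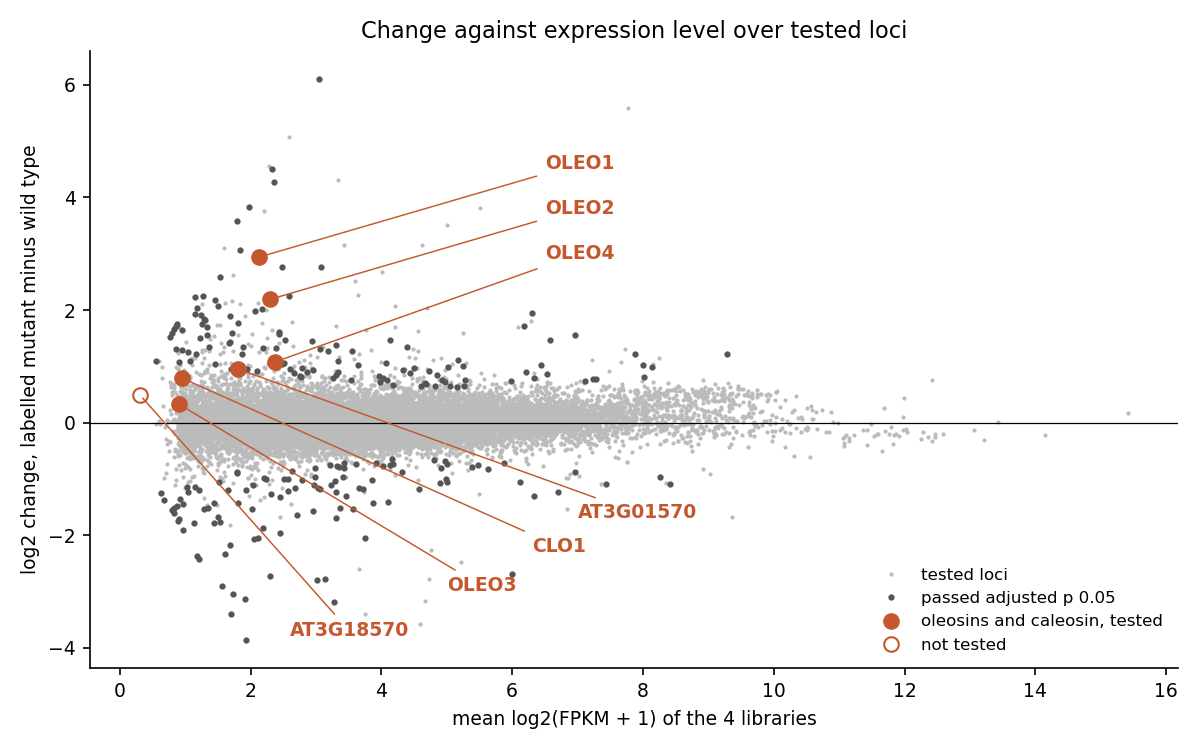
Log2 change (labelled mutant minus wild type) against the mean log2(FPKM + 1) of the 4 libraries, with tested loci in grey, loci that passed an adjusted p of 0.05 in dark grey and the 7 genes in red (open for AT3G18570, not tested). The 7 genes are weakly expressed and lie above 0, from 0.33 for OLEO3 to 2.94 for OLEO1.

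**Figure D3:**
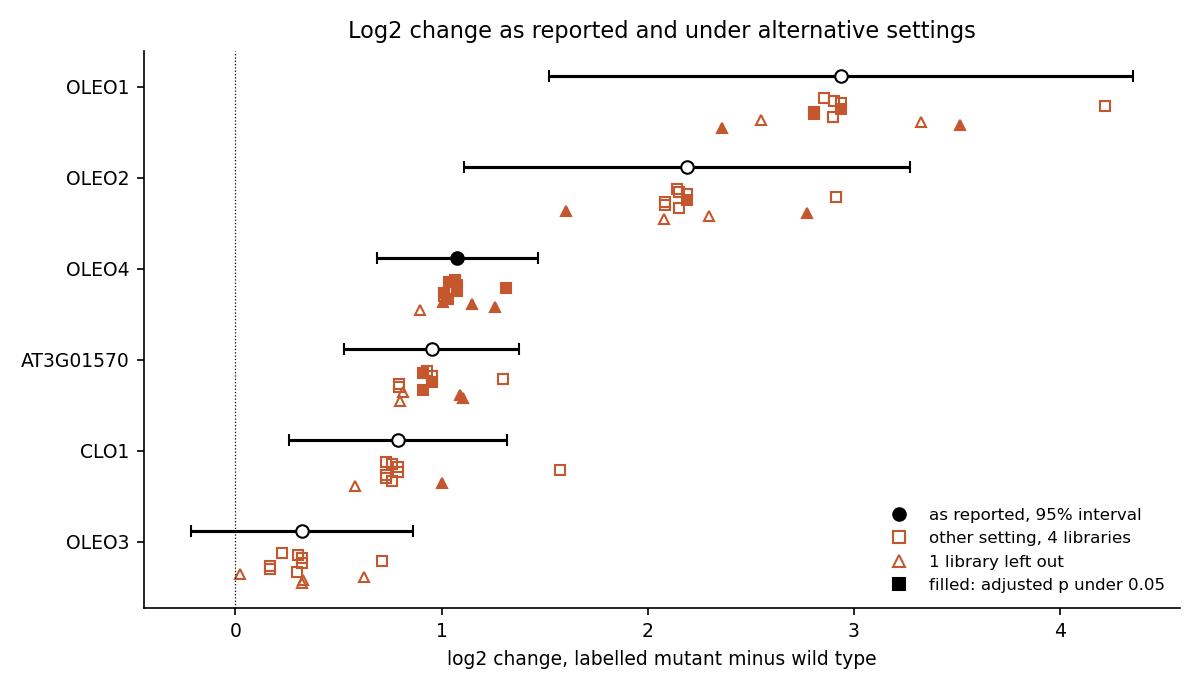
Log2 change of the 6 tested genes as reported (black circles, with 95% intervals) and under alternative settings (red squares) or with 1 library left out (red triangles); filled symbols have an adjusted p under 0.05. Every value lies above 0, from 0.02 for OLEO3 without wild-type library 1 to 4.22 for OLEO1 with a pseudocount of 0.1.

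The order of the levels also differed between the genotypes. In wild type OLEO4 was highest in both libraries, with 43.5% and 28.9% of the summed FPKM of the 7 genes. It was followed in the means by AT3G01570 at 1.53 ± 0.338, OLEO2 at 1.50 ± 1.36, OLEO3 at 0.714 ± 0.499, OLEO1 at 0.636 ± 0.608 and CLO1 at 0.488 ± 0.306 FPKM (SD, n = 2 each), and the libraries of each neighbouring pair among these 5 overlapped. OLEO4 lay above the range of AT3G01570, and AT3G18570 lay below that of CLO1.

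In the labelled mutants OLEO1 and OLEO2 led. OLEO1 averaged 12.1 ± 7.05 and OLEO2 9.55 ± 1.13 FPKM (SD, n = 2 each); their order was reversed in library 1, so they did not differ beyond their spread. OLEO4 came next at 6.56 ± 1.34, below both OLEO2 libraries but overlapping OLEO1. AT3G01570 at 3.90 ± 0.732, CLO1 at 1.57 ± 0.504, OLEO3 at 1.10 ± 0.00600 and AT3G18570 then followed with no overlap between neighbours. The share of OLEO1 in the summed FPKM was 3.76% and 11.3% for the wild-type pair, against 25.7% and 39.9%. The share of AT3G01570 went the other way, at 23.6% and 18.7% against 12.2% and 10.3%. So did those of OLEO4, at 43.5% and 28.9% against 20.3% and 17.5%, and OLEO3, at 6.59% and 11.3% against 3.96% and 2.58%. In FPKM all of these genes had both labelled mutants above both wild-type libraries, and shares of a single sum cannot all rise together. With 2 libraries against 2, an exact two-sided permutation test of a share cannot go below p = 0.333, so no test of these shares is given.

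**Figure D4:**
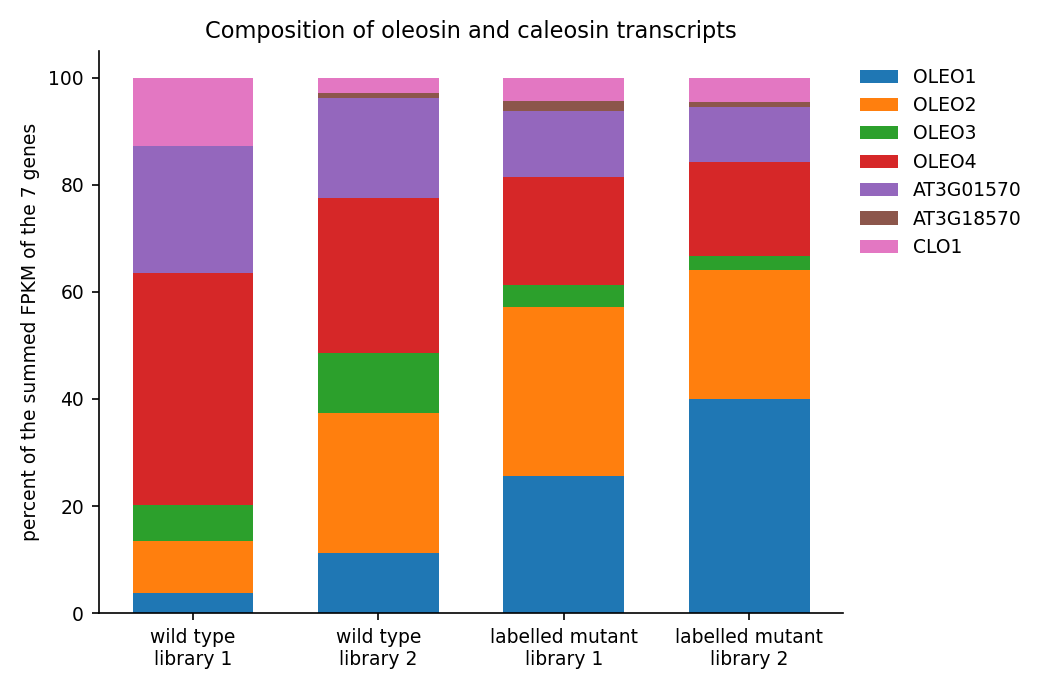
Percent of the summed FPKM of the 7 genes that each gene takes in each of the 4 libraries, as stacked bars. OLEO4 is the largest part in both wild-type libraries (43.5% and 28.9%), and OLEO1 and OLEO2 together are the larger part in both labelled mutant libraries.

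The libraries of a genotype also differed together. Of the 7 genes, 6 were higher in wild-type library 2 than in library 1, where 64.2% of tested loci were, and 6 were higher in labelled mutant library 2 than in library 1, where 58.6% were. The exceptions were CLO1 in wild type and AT3G18570 in the labelled mutants. The summed FPKM of the 7 genes was 1.72-fold higher in library 2 of wild type and 1.55-fold higher in library 2 of the labelled mutants. The ratio of labelled mutant library 2 to library 1 ran from 0.796 for AT3G18570 to 2.40 for OLEO1.

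The genes nearest to the group in their pattern over the 4 libraries were found from log2(FPKM + 1) after each gene's own mean was subtracted. The mean pattern of the 6 tested genes was −0.90 and −0.48 in wild-type libraries 1 and 2, and 0.49 and 0.89 in the labelled mutants. The nearest locus was BGLU19 (AT3G21370), a beta-glucosidase gene, with a root mean square distance of 0.0427. It rose to 6.11 and 8.73 FPKM in the labelled mutants, from 1.77 and 2.95 FPKM, (adjusted p = 0.0428, ended among others without labelled mutant library 2 at 0.0791, with a range of 5.32e-05 to 0.207). The second was AT2G25890, at a distance of 0.0692, a locus entered by hand in a list of further seed oleosins. AT3G58450, AT5G64110 and AT2G18193 followed at distances of 0.124 to 0.138. Among the 6 tested genes themselves OLEO4 was nearest to the mean pattern (0.182) and OLEO1 farthest from it (0.833). With 4 libraries in 2 genotypes, many loci that differ between genotypes resemble one another by this measure.

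Other genes of the oil body were less uniform. AT2G25890 had 0.331 and 0.868 FPKM in the wild-type pair against 2.19 and 3.65 FPKM in the labelled mutants, 4.87-fold higher by means, a log2 difference of 1.29 (SE 0.25, adjusted p = 0.0607). Like CLO1 it entered the test only through the labelled mutants, and it passed without either wild-type library (adjusted p = 0.0199 and 6.59e-04; range 6.59e-04 to 0.231). The other locus of that list, AT1G48990, was not tested, and its libraries overlapped. OBAP1a (AT1G05510), an oil body-associated protein gene, had 0.151 and 0.483 FPKM in the wild-type pair and rose to 2.31 and 4.79 FPKM, through which alone it passed the filter, a log2 difference of 1.74 (SE 0.28, adjusted p = 0.0412). The OBAP1a call ended with quantile normalization (adjusted p = 0.0605), with the gene-span trend taken out (0.0653) and with no filter on low values (0.194, the highest of a range that began at 8.68e-04).

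OBAP1a was entered in a list of 6 other lipid droplet proteins, of which 2 rose, 0 fell and 4 did not pass. Over all tested loci, 0.608% rose and 0.552% fell. The other riser was AT2G47780, with 3.79 and 2.94 FPKM in the wild-type pair, 8.43 and 6.53 FPKM in the labelled mutants (log2 0.95, SE 0.17, adjusted p = 0.0484), a call that ended under 6 of 12 alternatives, among them without labelled mutant library 1 (adjusted p = 0.0869; range 0.00132 to 0.206). The median log2 change over all 6 was 0.05.

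Relatives of the 7 genes among the other caleosins and the tapetal oleosins were at a range of levels, and 1 of them fell. RD20 (AT2G33380), a caleosin induced by drought in vegetative tissue, fell to 21.3 and 21.7 FPKM, against 47.8 and 40.5 FPKM in the wild-type pair (log2 −1.0, SE 0.13, adjusted p = 0.0113, 0.106 with no filter on low values). It was 1 of 6 other caleosins, of which 2 were tested. CLO4 stood at 18.4 and 21.5 against 25.2 and 24.2 FPKM (adjusted p = 0.270), and ATPXG2 (AT5G55240), not tested, at 0 and 0.185 against 0.572 and 1.36 FPKM; both were named after their values were seen. None of 9 oleosin loci of the anther tapetum, GRP17 among them, reached 1 FPKM in any library, and their summed FPKM was 0.556 to 1.09 in all 4.

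Steroleosins are a further class of oil body protein, with a sterol dehydrogenase domain. Of 8 loci, 3 were tested and 0 passed either way in limma, with 0 higher and 1 lower at an unadjusted p under 0.05. The lower gene was HSD3, at 16.2 and 15.9 FPKM against 11.2 and 9.76 FPKM (log2 −0.58, SE 0.12, adjusted p = 0.0838). HSD5, named after its values were seen and too low to be tested, stood at 0.0411 and 0.0360 against 0.352 and 0.963 FPKM, with both labelled mutants above. HSD6 stood at 1.01 and 1.11 against 1.45 and 1.25 FPKM (adjusted p = 0.635). Both copies of HSD1 (AT5G50600 and AT5G50700) were listed at 0 in all 4 libraries, as were HSD4 and HSD7. How reads shared between near-identical copies were counted is not given in the sources used here, so no level can be drawn from these zeros. Of 3 loci entered as seipins, which help droplets form, 2 were tested and 0 passed, with 0 at an unadjusted p under 0.05; AT1G29760 and AT2G34380 had log2 changes of −0.15 and 0.09.

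None of the tested genes in the lists of oil synthesis and oil breakdown passed in either direction. Of 12 oil synthesis genes, 11 were tested, 0 passed in limma and 0 had an unadjusted p under 0.05, with a median log2 change of 0.05 over the list. The gene too low to be tested was KCS18, named after its values were seen. It stood at 0.0417 and 0 against 0.0688 and 0.0931 FPKM. PDAT, which moves an acyl chain from phospholipid to diacylglycerol, stood at 22.9 and 22.8 against 16.3 and 21.2 FPKM (adjusted p = 0.353). WRI1, the transcription factor of fatty acid synthesis in seeds, stood at 5.84 and 7.56 against 7.90 and 8.94 FPKM (adjusted p = 0.374). Of 13 oil breakdown genes, all tested, 0 passed in limma, 1 was higher and 0 lower at an unadjusted p under 0.05, and the median was −0.04. The higher gene was ICL, isocitrate lyase of the glyoxylate cycle, at 9.63 and 13.5 FPKM against 14.6 and 20.4 FPKM (log2 0.56, SE 0.20, adjusted p = 0.235, 0.0392 without wild-type library 2; range 0.0392 to 0.661).

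**Figure D5:**
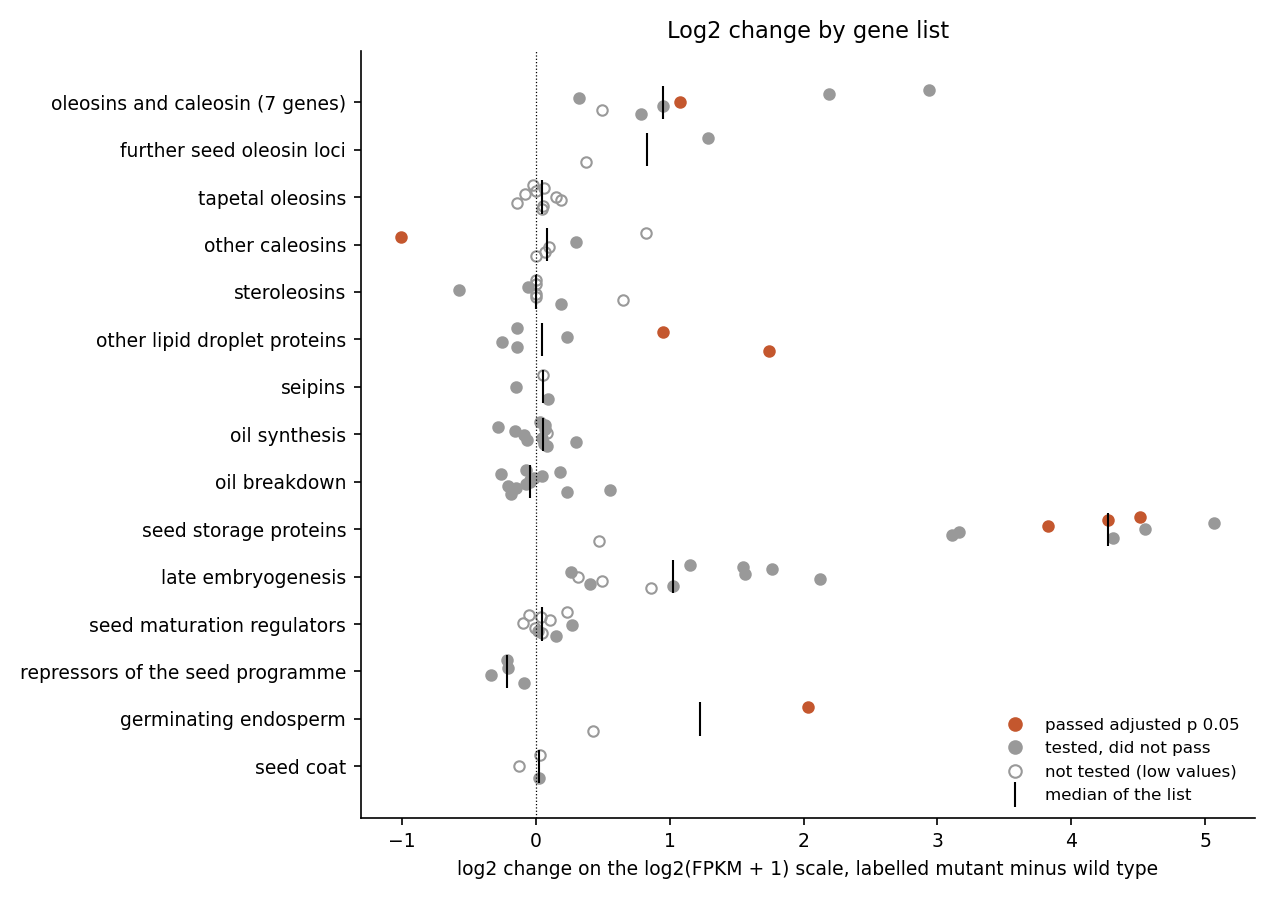
Change in log2(FPKM + 1), positive where labelled mutants were higher, of every gene in each hand-written list, red where the adjusted p was under 0.05, grey where it was not, open where low values kept the gene out of the test, with a bar at each list's median. The medians of the oleosins and caleosin, seed storage proteins and late embryogenesis genes were 0.95, 4.28 and 1.03, and those of oil synthesis and oil breakdown were 0.05 and −0.04.

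Genes for other contents of the dry seed were measured beside the oleosins and caleosin. Of 9 seed storage protein genes, 8 were tested, 3 rose and 0 fell, where 0.608% of all tested loci rose. All 9 had both labelled mutant libraries above both wild-type libraries, a pattern of 17.4% of all loci. The list summed to 2.89 and 21.8 FPKM for the wild-type pair, against 171 and 367 FPKM for the labelled mutants. Library 2 was higher in both genotypes, 7.53-fold in wild type and 2.15-fold in the labelled mutants, against 1.72-fold and 1.55-fold for the oleosins and caleosin. The wild-type ratio rests mostly on CRA1, named after its values were seen, which held 2.6 and 17.9 FPKM of the wild-type sums. Of the 8 tested, 6 passed the filter on low values only through the labelled mutants, so these counts are a description of where the genes were high. The 3 risers, all among those 6, were the 2S albumin genes SESA1, SESA2 and SESA4, with log2 changes of 4.51, 4.28 and 3.82 (adjusted p = 0.00341, 9.12e-05 and 0.0410). Leaving out wild-type library 1 ended the SESA1 and SESA4 calls (adjusted p = 0.142 and 0.664, respectively), as did leaving out library 2 (0.0947 and 0.504). Over all alternatives the adjusted p ran from 9.12e-08 to 0.142 for SESA1, from 7.23e-21 to 0.0760 for SESA2 and from 0.00123 to 0.664 for SESA4.

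Of 11 late embryogenesis genes, whose products protect the drying embryo, 8 were tested and 0 passed in limma, with 6 higher and 0 lower at an unadjusted p under 0.05 (9.22% of all tested loci were higher). Of the 8, 2 passed the filter only through the labelled mutants, and 3 of the 11 had libraries that overlapped between genotypes. The list's median log2 change was 1.03, near that of the oleosins and caleosin, and it summed to 8.61 and 14.7 FPKM for the wild-type pair, against 28.2 and 57.4 FPKM for the labelled mutants. PER1, a seed peroxiredoxin gene, stood at 0.967 and 2.04 against 5.54 and 9.56 FPKM (log2 1.77, SE 0.30, adjusted p = 0.0594). It passed without either wild-type library (adjusted p = 0.00272 and 2.90e-04) and when labelled mutant library 1 was absent (0.0292; range 2.90e-04 to 0.203). EM1 stood at 0.368 and 0.608 against 1.39 and 3.55 FPKM (adjusted p = 0.141).

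The factors that switch these genes on in seeds did not pass, and most were too low to be tested. Of 10 seed maturation regulators, 3 were tested and 0 passed in limma, with 0 at an unadjusted p under 0.05, and the median was 0.04. ABI5, a bZIP factor of abscisic acid signalling, stood at 0.874 and 1.20 FPKM against 1.34 and 1.56 FPKM (adjusted p = 0.498), and BZIP53 at 55.1 and 49.9 against 54.0 and 63.4 FPKM (adjusted p = 0.605). ABI3 was not tested and stood at 0.0213 and 0.0833 against 0.306 and 0.175 FPKM; it is named as the factor given in the background above. Of 4 repressors of the seed programme, 0 passed in limma, with 0 higher and 1 lower at an unadjusted p under 0.05. The lower one was PKL, a chromatin remodeller that keeps seed genes silent in seedlings, at 20.1 and 21.0 against 16.9 and 15.2 FPKM (log2 −0.34, SE 0.12, adjusted p = 0.211), and its log2 change was −0.073 (adjusted p = 0.821) with the gene-span trend taken out. HSL1, also called VAL2, stood at 9.88 and 12.3 against 9.55 and 9.24 FPKM (adjusted p = 0.494).

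Markers of other seed tissues were read beside these results. Of the 2 genes listed for the endosperm of germinating seeds, EPR1, an extensin-like gene, had 0.0225 and 0.223 FPKM in the wild-type pair and rose to 3.61 and 3.54 FPKM, through which alone it passed the filter (log2 2.03, SE 0.18, adjusted p = 0.00273, at most 0.0401 over 10 alternatives), and EXPA2 stood at 0.116 and 0.182 against 0.630 and 0.463 FPKM without being tested. The pair of genes summed to 0.139 and 0.405 FPKM in wild type, against 4.24 and 4.0 FPKM. Of the 3 seed coat genes, BAN and TT10 stood between 0 and 0.200 FPKM in the 4 libraries, and MUM4, which is also expressed in other tissues, at 30.3 to 31.7 FPKM. Of all 33278 loci, 17.4% had both labelled mutant libraries above both wild-type libraries. That pattern held for 9 of 9 seed storage, 8 of 11 late embryogenesis and 2 of 2 endosperm genes. It held for 3 of 10 seed maturation regulators and 0 of 3 seed coat genes. The part of these lists in the result for the oleosins and caleosin was not tested.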

How the data were processed

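The authors deposited FPKM values for 33278 loci in 4 RNA-seq libraries, per the file headers, and no counts, so the depth of each library is unknown and counting intervals cannot be given. RNA libraries were made with a TruSeq kit, per the labels' protocols. Bowtie2, TopHat and bedtools, and the build TAIR10, are named in the submitters' processing notes without a role, and the program that computed FPKM is not given in the sources used here. Among loci under 1 FPKM, ratios between library pairs lay within 0.2% of fixed steps for 54.9% of loci in 1 pairing and 2.25% to 2.88% in the others, so reads were not recovered. Columns were matched to libraries by genotype abbreviation and number.

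Values were tested with limma 3.58.1 (R 4.3.3) on log2(FPKM + 1), with trend and robust moderation and genotype as the only term. The 19917 loci that reached 1 FPKM in 2 or more libraries were fitted, two-sided, with Benjamini-Hochberg adjustment and a threshold of 0.05. The filter kept 6 of the 7 genes: 2 reached 1 FPKM in both wild-type libraries, 3 in 1 of them and 1 only in the labelled mutants. The script was tested on simulated data.

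The 7 genes and the lists were chosen with earlier results of these data known. Lists were written by hand from common usage, and 1 locus was dropped because the reference (RefSeq, TAIR10.1; 98.6% of loci matched) gives it another function. The named genes are the 7, HD2 genes, up to 4 called members per list or else the 2 with the smallest p, and the 5 nearest patterns; the text describes part of them, and 1 gene is not reported here. CAB1, RBCS1A and MYB36 are given as levels only, and the seed coat genes as levels and a count of those with both labelled mutants above. The assemblies differ in name, so no coordinates are printed. No sequence is shown. The other 5 samples of the series, from 2-week leaves, are not analysed here.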

Additional observations from a re-analysis of the deposited data

How the results depend on the processing

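The 6 tested genes kept their direction under all 12 alternatives (10 for CLO1, which failed the filter when a labelled mutant library was left out): of 70 values, 54 stayed on the same side of the threshold, 13 newly passed it and 3, all of OLEO4, lost the call. The third loss, beside those given above, came when the gene-span trend was removed and the replicate block added (adjusted p = 0.0559). AT3G18570 entered the fit only with no filter on low values (adjusted p = 0.155). OLEO4 was the 1 gene called as reported. With columns scaled to the same sum, or rescaled without the 4 rRNA loci, 2 were called, the second being AT3G01570 (adjusted p = 0.0208 and 0.0196). With no filter 0 were called in limma, though 6 were higher at an unadjusted p under 0.05, as were 7.10% of the loci in that fit, and leaving out 1 library gave 1 to 3: 3 without wild-type library 1 or 2 or labelled mutant library 1, and 1, OLEO1, without labelled mutant library 2. Over all loci, 121 higher and 110 lower became 320 and 274 with equal sums, 332 and 284 without rRNA loci, 19 and 20 with no filter, 69 higher with the gene-span trend taken out, and 146 to 390 higher and 107 to 160 lower with 1 library left out (390 higher when wild-type library 2 was absent, 234 when labelled mutant library 1 was). The members' median log2 change of 0.95 was 1.58 with a pseudocount of 0.1 and 0.80 to 1.10 with 1 library left out. With 1 library left out the log2 change of HD2C ran from −0.10 (without labelled mutant library 1) to 0.31, and that of the seipin locus AT2G34380 from −0.010 (without wild-type library 1) to 0.19, so both changed sign. The cause of these shifts was not tested.

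The labels do not say that a library number marks a shared batch. Deviations of same-numbered libraries correlated at 0.168, over 2 pairs only. Fixed steps in values under 1 FPKM were shared mainly by library 2 of wild type and library 2 of the labelled mutants (54.9% of loci). The source of these steps was not tested. With the replicate block, 4 of the 7 genes were called (OLEO1, adjusted p = 3.23e-04; OLEO2, 0.0180; OLEO4, 0.0182; AT3G01570, 0.0355), with 260 loci higher and 172 lower; with the block and no gene-span trend these were 60 and 68, and of the 7 genes OLEO1 alone was called (adjusted p = 0.00380).

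Values under about 1 FPKM, which hold for 5 of the 7 genes in at least 1 wild-type library, carry an unknown counting error, and folds on them are loosely fixed.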
